A study of Mus musculus with 5 samples.

Results

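Small Cajal body RNAs (scaRNAs) were followed across mouse germ cells and the zygote, through the short fragments of them that small RNA sequencing caught. They were taken from the snoRNA tables of 5 libraries as the entries whose name holds scaRNA or Cajal. Of 14 such entries, the 10 with the most reads summed over the 5 libraries were kept, out of 186 entries that each name 1 snoRNA. The members were thus chosen by their summed reads, so their levels below are a description with no test. The last entry inside that limit, scaRNA11, had 53 reads in all, and the first one outside it, ACA35/scaRNA1, had 35. The other 3 entries left out were ACA11/scaRNA23 with 21 reads, scaRNA14 with 3 and ACA68/scaRNA21 with 2.

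Each cell type was sequenced once, which leaves every difference below without a replicate. The primordial germ cell (PGC) library came from male gonads of CD-1 fetuses 13.5 days after coitum, with cells taken by anti-CD15 beads and purity read from alkaline phosphatase. The spermatogonia (SPG) library came from CD-1 testes 8.5 days after birth, where somatic cells were removed by settling and adhesion and the cells expressed Stra8 but not Fn1. The spermatozoa (SPZ) library came from CD-1 males, with sperm of the vas deferens and cauda epididymis passed through a Percoll gradient and a hypo-osmotic shock. The oocyte (OCY) library came from 15210 metaphase II oocytes of superovulated C57BL/6 females without cumulus cells and zona. The zygote (ZYG) library came from 15416 zygotes of C57BL/6 mothers and DBA/6J fathers, 15 to 18 hours after fertilization. The labels name no genetic change, and no treatment besides superovulation. The 3 male libraries share 1 strain and the egg libraries do not have it, so strain and preparation cannot be told apart from cell type.

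Cajal bodies are compartments of the nucleus in which the small nuclear RNAs of the spliceosome mature. There, scaRNAs pair with these RNAs and guide the modification of single nucleotides. Those with C/D boxes guide 2′-O-methylation, those with H and ACA boxes guide pseudouridylation, and some carry both kinds of box. A short CAB box with the letters UGAG is known to hold the H/ACA members in Cajal bodies. The roles given for single members below are those known from the human RNAs.

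The genes that carry the members are given first. Of the 10 members, 5 matched a RefSeq gene by symbol or synonym, and their transcripts were read from the GENCODE vM21 set on GRCm38 (mm10). Scarna6 lies at chr1:87784556-87784820 on the + strand, in an intron of Atg16l1, an autophagy gene. Scarna8 lies at chr4:86586453-86586583 on the - strand, in an intron of Haus6, a gene of the mitotic spindle. Scarna6 is printed because it held most of the reads, and Scarna8 as an H/ACA member for contrast. In Scarna6 the capitals mark the letters TGATGA, the core of a C box, and CTGA, those of a D box. In Scarna8 they mark TGAG, the letters of a CAB box, and the last ACA.
Scarna6: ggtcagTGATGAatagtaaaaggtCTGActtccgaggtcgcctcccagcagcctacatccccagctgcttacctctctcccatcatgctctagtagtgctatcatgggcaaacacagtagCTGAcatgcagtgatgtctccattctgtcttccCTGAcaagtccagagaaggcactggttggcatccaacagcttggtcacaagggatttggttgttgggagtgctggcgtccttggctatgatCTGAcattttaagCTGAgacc
Scarna8: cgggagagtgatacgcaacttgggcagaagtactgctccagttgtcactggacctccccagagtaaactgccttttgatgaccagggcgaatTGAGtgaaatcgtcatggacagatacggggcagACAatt
Scarna6 is 265 bases long and held TGATGA at base 7 and CTGA 5 times, the last at base 258, where TGAG overlaps it by 3 bases. Scarna8 is 131 bases long and held TGAG at base 93 and ACA at base 126, with 3 bases after it. It also held TGATGA, at base 76 and left in lower case, so these letters do not set Scarna8 apart from Scarna6. These letters were searched on the RNA's own strand only. TGATGA occurs in 39.2% of all 51 annotated scaRNA transcripts, CTGA in 74.5% and TGAG in 72.5%, while 68.6% have an ACA that lies wholly in the last 8 bases. The fragments sequenced were 18 to 32 nucleotides, so a level is that of pieces of these RNAs, and the tables give no position of a read within the gene.

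Another entry, HBI-100/MBI-100/MBI-114/scaRNA25 (scaRNA25 from here), matched a pair of genes. Scarna3a lies at chr1:159340283-159340422 on the + strand in an intron of Cop1, a ubiquitin ligase gene. Scarna3b lies at chr12:80391613-80391751 on the - strand in an intron of Dcaf5. RefSeq places the hairpins of miR-1843b and miR-1843a in the 3′ parts of these RNAs, and the capitals mark the mature miRNA arms.
Scarna3a: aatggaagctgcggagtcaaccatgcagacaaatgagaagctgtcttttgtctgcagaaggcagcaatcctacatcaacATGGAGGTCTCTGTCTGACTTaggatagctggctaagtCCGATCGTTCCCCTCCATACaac
Scarna3b: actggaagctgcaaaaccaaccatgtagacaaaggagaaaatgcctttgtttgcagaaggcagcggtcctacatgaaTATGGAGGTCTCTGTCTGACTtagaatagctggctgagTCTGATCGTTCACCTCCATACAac
The transcripts had the same base at 120 of 140 aligned positions (85.7%), and their longest shared run was 23 bases. An 18-base read can therefore match both genes at 6 positions, all within that run, and the entry does not separate them. The same run lies across the 5′ miRNA arms of both genes. Below, the mature miRNAs are given from RefSeq (GRCm38.p6) with the seed, bases 2 to 8, in capitals.
miR-1843b-5p: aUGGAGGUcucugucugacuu
miR-1843a-5p: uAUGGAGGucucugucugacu
miR-1839-5p: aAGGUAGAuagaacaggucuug
The arms miR-1843a-5p and miR-1843b-5p share a run of 20 bases but start 1 base apart, so their seeds are shifted by 1 base. miR-1839-5p lies in another annotated scaRNA gene, which matches none of the members by name (chr7:81529855-81529981, + strand, in an exon of the non-coding 2900076A07Rik), and was added after the annotation was seen.

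Of the other matched members, Scarna13 is 275 bases long (chr12:105031075-105031349, - strand) and lies in an intron of the non-coding host gene Snhg10, with the hairpin of miR-3069 in it. Scarna17 is 79 bases long. Of its 62 different 18-base stretches, 53 also occur in another annotated scaRNA gene, Gm25443, so reads of scaRNA17 may belong to either, and its values are uncertain. For Scarna6 none of 248 such stretches occurs in another annotated transcript. The members scaRNA18, scaRNA4, ACA66/scaRNA20, ACA47/scaRNA16 and scaRNA11 were matched to no gene here.

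Levels are given on 2 scales. The first is reads per 1000000 reads of the library's snoRNA table (snoRNA RPM). The second is reads per 1000000 reads of all 4 tables, those of miRNAs, snoRNAs, piRNAs and endo-siRNAs (total RPM). The snoRNA tables held 7521583 reads in PGCs, 5108830 in spermatogonia and 1027717 in spermatozoa, with 749747 in the oocyte and 591686 in the zygote. That was 28.3%, 19.4%, 4.71%, 1.73% and 1.37% of the 4 tables in the same order, so the scales differ most between early male germ cells and the egg. A single C/D box snoRNA, SNORD60, took 76.3% to 92.6% of each snoRNA table and so sets the first scale. Brackets give exact 95% intervals, which cover counting error only, as there is 1 library per cell type. They take reads as independent, which copies made by PCR are not, so they may be too narrow. A count of 0 reads allows up to 3 reads, which is 0.399 snoRNA RPM in PGCs, 0.587 in spermatogonia and 2.92 in spermatozoa, with 4.00 in the oocyte and 5.07 in the zygote.

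Labels were checked on miRNAs of known cell types. The miR-290 to miR-295 cluster, known from pluripotent cells, was at 42592 reads per 1000000 miRNA reads (miRNA RPM) in PGCs and at 65.8 to 10598 elsewhere. miR-34b/c, known from late spermatogenesis, was at 232456 in spermatozoa and at 889 to 8252 elsewhere. Markers of other cells were present too. miR-143 and miR-145a of smooth muscle, with 4 of 4 arms read in every library, stood at 9261 in PGCs, 233110 in spermatogonia and 230783 in spermatozoa, with 26563 in the oocyte and 20992 in the zygote. Red cell miRNAs, miR-451a and miR-144 with 2 of 3 arms read in the oocyte and 3 of 3 elsewhere, reached 18886 in spermatozoa against 188 to 1774 elsewhere. The leukocyte miRNAs miR-142 and miR-223 reached 2772 in spermatozoa and 28.8 to 537 elsewhere, with 2 to 4 of 4 arms read. Gonadal miR-202, with both arms read in every library, was at 14981 in spermatogonia and 103 to 5723 elsewhere, and miR-126a of endothelium at 9053 in spermatogonia and 96.7 to 1051 elsewhere. The miR-200 family of epithelia was at 22968 in spermatozoa and 1084 to 9966 elsewhere, with 7 to 10 of 10 arms read. What part such cells had in the scaRNA levels was not tested.

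ScaRNA reads made up a far larger share of the snoRNA reads in the egg and zygote than in the male germ line. The 10 members together had 4969 reads in PGCs, 7416 in spermatogonia and 312 in spermatozoa, with 19913 in the oocyte and 22607 in the zygote. That was 0.0661% [0.0642 to 0.0679] of snoRNA reads in PGCs and 0.145% [0.142 to 0.149] in spermatogonia. It was 0.0304% [0.0271 to 0.0339] in spermatozoa, 2.66% [2.62 to 2.69] in the oocyte and 3.82% [3.77 to 3.87] in the zygote. From high to low the order was zygote, oocyte, spermatogonia, PGCs and spermatozoa on both scales, and each step was larger than counting error. In total RPM the sum was 187 in PGCs, 282 in spermatogonia and 14.3 in spermatozoa, with 460.5 in the oocyte and 523 in the zygote. On that scale the zygote was 1.14-fold above the oocyte [1.11 to 1.16], and the oocyte lay less far above the early male germ cells. Whether a lower level comes from less of an RNA per cell or from fewer cells that hold it cannot be told apart in such pooled samples.

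The sum was mostly 1 RNA. scaRNA6/U88, which carries both C/D and H/ACA boxes and is known to guide a methylation of U5, held 95.1% of the members' reads over the 5 libraries. It held 97.5% of them in PGCs, 88.8% in spermatogonia and 42.0% [36.4 to 47.7] in spermatozoa, with 95.6% in the oocyte and 96.9% in the zygote. Among all snoRNA entries it ranked 14 by reads in PGCs, 10 in spermatogonia, 55 in spermatozoa and 3 in both the oocyte and the zygote. scaRNA18 was second in every library, at 0.664%, 6.93%, 24.4%, 3.30% and 1.63% of the members' reads. Per base of annotated length, scaRNA6 had 198 reads over the 5 libraries, scaRNA8 1.40, scaRNA17 0.937 and scaRNA13 0.269. In spermatozoa scaRNA17 stood at 579 and scaRNA6 at 481 snoRNA RPM per kilobase, a ratio of 1.20 [0.843 to 1.69].

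**Figure D1:**
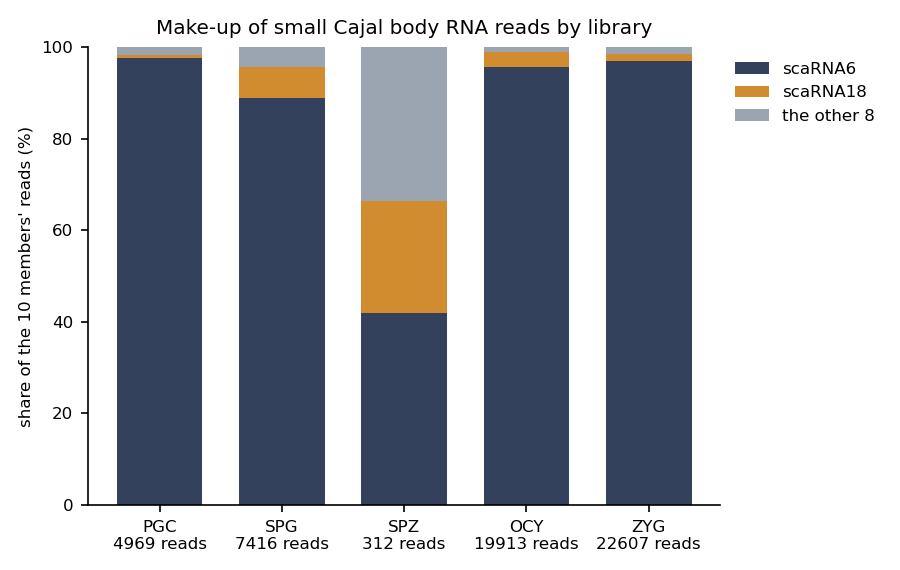
Stacked bars give the share (percent) of the 10 members' reads taken by scaRNA6, scaRNA18 and the other 8 in each library, with the members' reads under each bar. Only in spermatozoa, at 42.0%, was the share of scaRNA6 below 88.8%.

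scaRNA6 had 4846 reads in PGCs, 6586 in spermatogonia and 131 in spermatozoa, with 19043 in the oocyte and 21896 in the zygote. These are 644 snoRNA RPM in PGCs, 1289 in spermatogonia and 127 in spermatozoa, with 25399 in the oocyte and 37006 in the zygote. Zygote and oocyte were far above the other libraries, and spermatozoa lay below all of them. In total RPM the levels were 182, 250.0, 6.00, 440.4 and 506 in the same order, and the order of the libraries was the same. On both scales all 4 steps between neighbours in that order were larger than counting error.

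Without scaRNA6, the other 9 members summed to 16.4 [13.6 to 19.5] snoRNA RPM in PGCs, 162 [152 to 174] in spermatogonia and 176 [151 to 204] in spermatozoa. They summed to 1160 [1085 to 1240] in the oocyte and 1202 [1115 to 1293] in the zygote. Zygote and oocyte did not differ beyond counting error, and neither did spermatozoa and spermatogonia. In total RPM the 9 were instead highest in spermatogonia, at 31.5, against 4.63 in PGCs and 8.29 in spermatozoa, with 20.1 in the oocyte and 16.4 in the zygote. Which cell type stood highest for these 9 thus depended on the scale, while for scaRNA6 it did not.

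**Figure D2:**
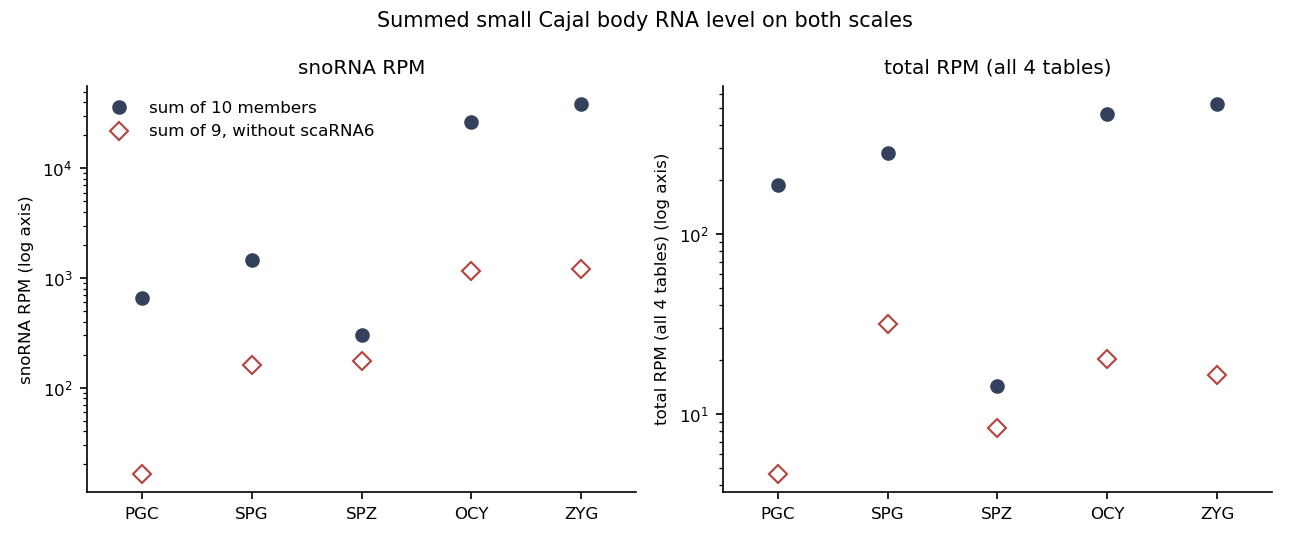
Points give the summed level of the 10 members (filled) and of 9 without scaRNA6 (open) in each library, on log axes, in snoRNA RPM (left) and total RPM (right). The filled points have the same order in both panels, and the open ones are highest in the zygote on the left (1202) and in spermatogonia on the right (31.5).

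Among the H/ACA members known to guide pseudouridylation of U2, scaRNA8/U92 had 23 reads in PGCs, 91 in spermatogonia and 0 in spermatozoa, with 42 in the oocyte and 28 in the zygote. Its level was 3.06, 17.8, 0, 56.0 and 47.3 snoRNA RPM in that order. Oocyte and zygote lay highest and did not differ beyond counting error, and the 0 in spermatozoa could not be told from the level in PGCs at this depth. In total RPM spermatogonia were highest, at 3.45, and the oocyte next, at 0.971, apart beyond counting error. scaRNA4, another guide of U2, had 5 reads in PGCs, 59 in spermatogonia and 13 in spermatozoa, with 52 in the oocyte and 47 in the zygote. Its level was 0.665, 11.5, 12.6, 69.4 and 79.4 snoRNA RPM. PGCs lay lowest, the other male germ cell libraries were level with one another within counting error, and so were the oocyte and zygote. In total RPM spermatogonia were highest for scaRNA4 too, at 2.24 against 1.20 in the oocyte, again apart beyond counting error.

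Among the guides of U5, the H/ACA member scaRNA13/U93 had 5 reads in PGCs, 27 in spermatogonia and 0 in spermatozoa, with 15 in the oocyte and 27 in the zygote. Its level was 0.665, 5.28, 0, 20.0 and 45.6 snoRNA RPM. scaRNA11, also of the H/ACA kind, had 0 reads in PGCs, 25 in spermatogonia and 0 in spermatozoa, with 8 in the oocyte and 20 in the zygote, or 0, 4.89, 0, 10.7 and 33.8 snoRNA RPM. Both were highest in the zygote on this scale. They were highest in spermatogonia in total RPM, where scaRNA13 stood at 1.02 in spermatogonia and 0.625 in the zygote, a step within counting error.

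The members known to act on other spliceosomal RNAs had patterns of their own. ACA66/scaRNA20 (scaRNA20), an H/ACA guide of U12, the small nuclear RNA of the minor spliceosome, had 12 reads in PGCs, 20 in spermatogonia and 3 in spermatozoa, with 4 in the oocyte and 131 in the zygote. At 221 [185 to 263] snoRNA RPM the zygote alone was high, against 1.60, 3.91, 2.92 and 5.34 in the others. Among those 4, no neighbours in order differed beyond counting error, though spermatogonia stood 2.45-fold above PGCs [1.14 to 5.51]. The zygote held 94.1% of the summed level on this scale. In total RPM scaRNA20 was at 3.03 in the zygote, 3.99-fold above spermatogonia at 0.759 [2.48 to 6.75]. PGCs were then at 0.452, spermatozoa at 0.137 and the oocyte lowest at 0.0925. ACA47/scaRNA16 (scaRNA16), an H/ACA guide of U1, had 35 reads in PGCs, 72 in spermatogonia and 33 in spermatozoa, with 18 in the oocyte and 4 in the zygote. Its level was 4.65, 14.1, 32.1, 24.0 and 6.76 snoRNA RPM, with no step between neighbours in order beyond counting error. Libraries further apart in that order did differ. Spermatozoa stood 2.28-fold above spermatogonia [1.46 to 3.49], and spermatogonia 3.03-fold above PGCs [1.996 to 4.67]. In total RPM the order differed, from 2.73 in spermatogonia through 1.51 in spermatozoa, 1.32 in PGCs and 0.416 in the oocyte to 0.0925 in the zygote, and 3 of those 4 steps were larger than counting error.

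scaRNA17, a C/D box RNA known to guide a methylation of U4, had 10 reads in PGCs, 8 in spermatogonia and 47 in spermatozoa, with 4 in the oocyte and 5 in the zygote. Spermatozoa alone were high, at 45.7 [33.6 to 60.8] snoRNA RPM, against 1.33, 1.57, 5.34 and 8.45 in the others, and held 73.3% of the summed level. It was highest in spermatozoa in total RPM too, at 2.15 against 0.0925 to 0.376. Its shared stretches with Gm25443 apply here. The marker miRNAs of red cells, leukocytes and epithelia also had their highest levels in that library, and their part in this value was not tested.

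scaRNA18 had 33 reads in PGCs, 514 in spermatogonia and 76 in spermatozoa, with 658 in the oocyte and 369 in the zygote. Its level was 4.39, 101, 74.0, 878 and 624 snoRNA RPM, and all neighbours in order were apart beyond counting error. Oocyte stood above zygote, the reverse of scaRNA6. In total RPM it was highest in spermatogonia, at 19.5, against 15.2 in the oocyte, 8.54 in the zygote, 3.48 in spermatozoa and 1.24 in PGCs. scaRNA25, the entry of Scarna3a and Scarna3b, had 0 reads in PGCs, 14 in spermatogonia and 9 in spermatozoa, with 69 in the oocyte and 80 in the zygote. It stood at 0, 2.74, 8.76, 92.03 and 135 snoRNA RPM, each step in that order apart beyond counting error, against 2 of 4 steps in total RPM.

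**Figure D3:**
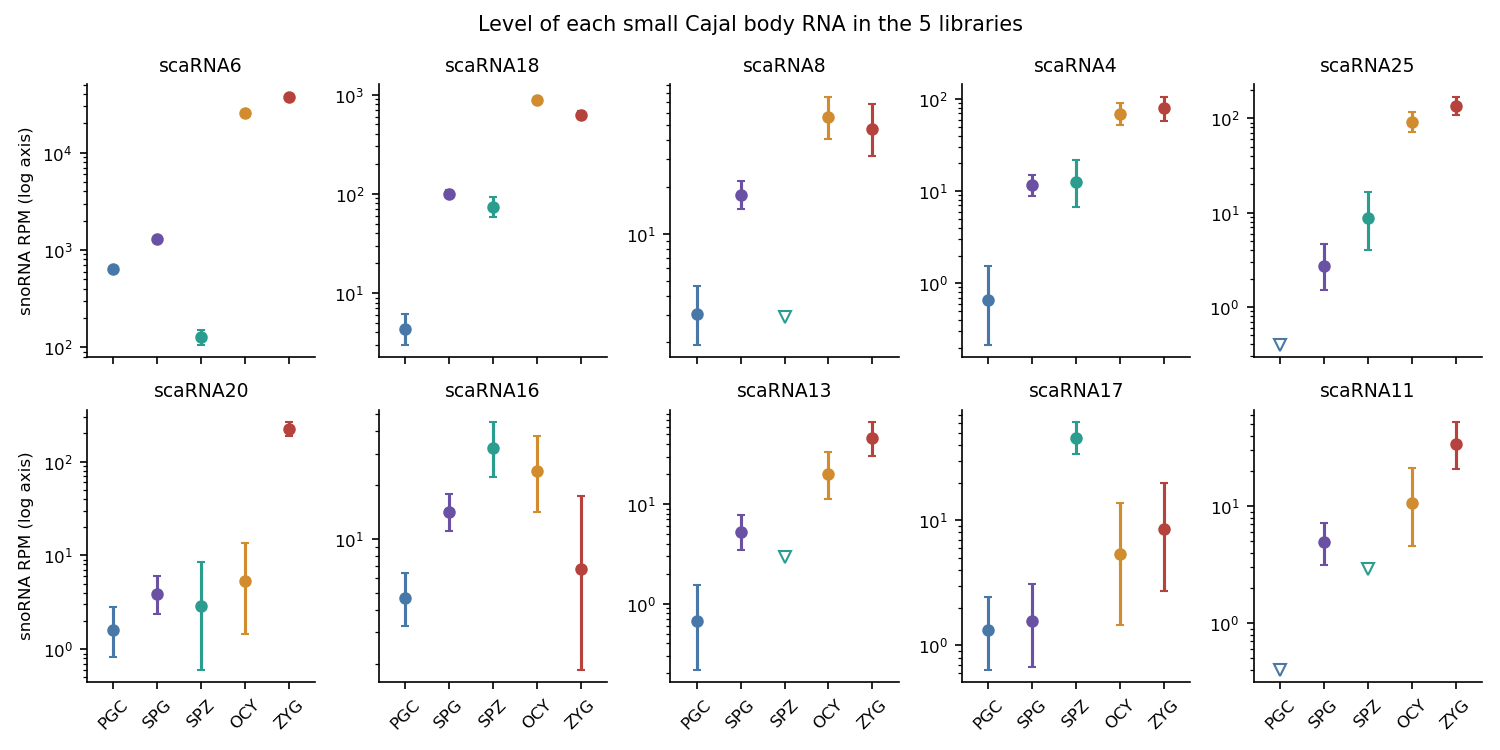
Points give snoRNA RPM (log axes that differ between panels) of each member in the PGC, SPG, SPZ, OCY and ZYG libraries, with exact 95% counting intervals, and open triangles mark the level of 3 reads where no read was found. In 6 of the 10 panels the zygote is highest, in 2 the oocyte (scaRNA18, scaRNA8) and in 2 spermatozoa (scaRNA16, scaRNA17). The same count over all snoRNA entries was not made.

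On the first scale 6 of 10 members were highest in the zygote, 2 in the oocyte and 2 in spermatozoa. In total RPM 3 were highest in the zygote (scaRNA6, scaRNA25 and scaRNA20), 6 in spermatogonia and 1, scaRNA17, in spermatozoa. The same counts over all 186 entries were not made, so these are not read as a trait of scaRNAs. A read was found for 8 members in PGCs, 7 in spermatozoa and all 10 in each of the other libraries. In spermatozoa 1 of the 7, scaRNA20, had no more than 3 reads.

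The zygote was set against the oocyte, the stages after and before fertilization. This and the next comparisons share libraries, so they are not independent of each other. An entry was called measured with 100 or more reads summed over both libraries, and called apart at a ratio of 4-fold or more after adding 0.5 reads to each side. Of 99 measured snoRNA entries, 1.01% were higher in the zygote by that measure and 1.01% lower. Of 4 members that passed the read limit, 1 was higher and 0 were lower. It was scaRNA20, the entry with the highest ratio of the 99, and it passed the limit through its zygote reads alone. Its 131 zygote reads against 4 oocyte reads were a 41.5-fold ratio [15.8 to 155] in snoRNA RPM and a 32.8-fold one [12.5 to 122] in total RPM. scaRNA6, with 21896 reads in the zygote and 19043 in the oocyte, was 1.46-fold higher [1.43 to 1.49], and in total RPM 1.15-fold [1.13 to 1.17]. scaRNA18, with 369 reads in the zygote and 658 in the oocyte, was 1.41-fold lower in the zygote [1.24 to 1.60].

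The lower counts allow less. scaRNA11, with 20 reads in the zygote and 8 in the oocyte, was 3.17-fold higher [1.34 to 8.32], and scaRNA13, with 27 in the zygote and 15 in the oocyte, 2.28-fold [1.17 to 4.61]. scaRNA16, with 4 reads in the zygote and 18 in the oocyte, was 3.55-fold lower [1.17 to 14.4]. For scaRNA8, scaRNA4 and scaRNA17 the interval of the ratio held 1 on both scales, and for scaRNA13 and scaRNA25 it did so in total RPM. The median log2 ratio of the 4 members was 0.55, beside 0.22 over the 99 entries, 0.75 over 17 H/ACA entries and 0.11 over 72 C/D entries. With scaRNA20 in through its zygote reads alone, the members' median is a description only. All log2 ratios of this comparison are lower by 0.34 in total RPM.

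Set against spermatozoa, 47.5% of 101 measured entries were higher in the zygote by 4-fold or more and 8.91% lower. The 3 members that passed the limit, scaRNA6, scaRNA18 and scaRNA20, were all higher, the last pair having passed through their zygote reads alone. They had a median log2 ratio of 6.03, the value of scaRNA20, beside 1.95 over all entries. It was 3.87 over 15 H/ACA entries and 1.47 over 76 C/D entries. Because that pair passed through zygote reads alone, the members' median is a description only. scaRNA6, with 21896 reads in the zygote and 131 in spermatozoa, was 290-fold higher [245 to 347], the second highest ratio of the 101. In total RPM it was 84.4-fold higher [71.1 to 101]. scaRNA20, with 131 reads in the zygote and 3 in spermatozoa, was 75.8-fold higher [25.4 to 373]. scaRNA18, with 369 reads in the zygote and 76 in spermatozoa, was 8.43-fold higher [6.57 to 10.9]. Below the read limit, and in snoRNA RPM, scaRNA8, scaRNA13 and scaRNA11 had reads in the zygote and none in spermatozoa, which makes them at least 16.2-fold, 15.6-fold and 11.6-fold higher when 3 reads are set in spermatozoa and the zygote reads are taken as exact. The exact intervals, which also hold the error of the zygote reads, began at 12.3-fold, 11.9-fold and 8.58-fold. Bounds for other counts of 0 below were made in the same way. scaRNA25 was 15.4-fold higher [7.74 to 34.99] and scaRNA4 6.28-fold [3.34 to 12.7]. scaRNA17 and scaRNA16 went the other way: they were 5.41-fold lower in the zygote [2.16 to 17.4] and 4.75-fold lower [1.69 to 18.5]. All ratios of this comparison are lower by 1.78 on the log2 scale in total RPM, and scaRNA18 was then 2.45-fold higher [1.91 to 3.18], while for scaRNA4 the interval of the ratio held 1.

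The gametes were compared next, and in spermatozoa 7.84% of 102 measured entries were higher than in the oocyte by 4-fold or more and 45.1% lower. Both members that passed the limit were lower, scaRNA18 having passed through its oocyte reads alone. scaRNA6, with 131 reads in spermatozoa and 19043 in the oocyte, was 199-fold lower [168 to 238], the second lowest of the 102 entries, and 73.4-fold lower [61.8 to 87.8] in total RPM. scaRNA18, with 76 reads in spermatozoa and 658 in the oocyte, was 11.9-fold lower [9.35 to 15.3], and 4.37-fold lower [3.44 to 5.62] in total RPM. scaRNA17, under the limit with 47 reads in spermatozoa and 4 in the oocyte, was 8.57-fold higher in spermatozoa [3.13 to 32.8]. scaRNA25 was 10.5-fold lower in spermatozoa [5.23 to 23.9] and scaRNA4 5.48-fold lower [2.94 to 10.98]. With no reads in spermatozoa, scaRNA8, scaRNA13 and scaRNA11 were at least 19.2-fold, 6.85-fold and 3.66-fold lower in snoRNA RPM, and their exact intervals began at 14.9-fold, 4.92-fold and 2.34-fold. In total RPM the interval for scaRNA11 held 1. The interval for scaRNA16 held 1 in snoRNA RPM, but in total RPM scaRNA16 was 3.63-fold higher in spermatozoa [1.99 to 6.85]. The median log2 ratio of the 2 members was -5.60, beside -1.40 over all entries, -3.52 over 14 H/ACA entries and -1.12 over 79 C/D entries. With scaRNA18 in through its oocyte reads alone, the members' median is a description only. All log2 ratios of this comparison are higher by 1.44 in total RPM.

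In the male germ line, 16.3% of 129 measured entries stood 4-fold or more higher in spermatogonia than in PGCs and 3.1% lower. Of 4 members that passed the limit, 2 were higher and 0 lower, scaRNA18 having passed through its spermatogonia reads alone. scaRNA18, with 514 reads in spermatogonia and 33 in PGCs, was 22.9-fold higher [16.1 to 33.7], the third highest of the 129, and 15.7-fold [11.04 to 23.1] in total RPM. scaRNA8, with 91 reads in spermatogonia and 23 in PGCs, was 5.83-fold higher [3.65 to 9.65] and in total RPM 3.99-fold [2.50 to 6.61]. scaRNA6, with 6586 reads in spermatogonia and 4846 in PGCs, was 2.001-fold higher [1.93 to 2.08] in snoRNA RPM and 1.37-fold [1.32 to 1.42] in total RPM. With the factor of the authors' deposited TMM column its log2 ratio was -0.099, against 1.00 in snoRNA RPM, so its direction depended on the scaling. scaRNA16 was 3.03-fold higher [1.996 to 4.67]. The sum without scaRNA6 was 9.93-fold higher in spermatogonia [8.21 to 12.1], against 2.20-fold [2.12 to 2.28] with it. Under the limit, scaRNA4 was 17.4-fold higher [7.04 to 55.5] and scaRNA13 7.95-fold [3.02 to 26.4]. scaRNA25 and scaRNA11 had no reads in PGCs and were at least 6.87-fold and 12.3-fold higher in spermatogonia, with exact intervals that began at 4.88-fold and 9.26-fold. scaRNA20 was 2.45-fold higher [1.14 to 5.51], but in total RPM its interval held 1. For scaRNA17, at 1.18-fold [0.404 to 3.31], the interval held 1 on both scales. All log2 ratios of this comparison are lower by 0.55 in total RPM. In spermatogonia the markers of gonadal soma, endothelium and smooth muscle were also at their highest, and their part was not tested. Those of smooth muscle were at 233110 miRNA RPM there against 9261 in PGCs, and nearly as high in spermatozoa, at 230783.

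Between spermatozoa and spermatogonia, 13% of 115 measured entries stood 4-fold or more higher in spermatozoa and 8.7% lower. Of 3 members that passed the limit, 0 were higher and 1, scaRNA6, was lower. With 131 reads in spermatozoa and 6586 in spermatogonia it was 10.1-fold lower [8.51 to 12.1], and 41.7-fold lower [35.04 to 49.9] in total RPM. scaRNA18 was 1.36-fold lower in spermatozoa [1.07 to 1.75] and scaRNA16 2.28-fold higher [1.46 to 3.49]. scaRNA25, with 9 reads in spermatozoa and 14 in spermatogonia, was 3.196-fold higher [1.22 to 7.93], but in total RPM the interval of its ratio held 1. For scaRNA4 the interval held 1 in snoRNA RPM, and in total RPM it was 3.76-fold lower in spermatozoa [2.04 to 7.47]. On the first scale scaRNA8, with no read in spermatozoa, was at least 6.10-fold lower there, with an exact interval that began at 4.86-fold. scaRNA13 and scaRNA11, also with none there, were at least 1.81-fold and 1.68-fold lower, and their exact intervals began at 1.37-fold and 1.27-fold. scaRNA17, with 47 reads in spermatozoa and 8 in spermatogonia, was 29.2-fold higher [13.7 to 71.6], and 7.09-fold [3.32 to 17.4] in total RPM. All log2 ratios of this comparison are lower by 2.04 in total RPM, where scaRNA16 was 1.81-fold lower in spermatozoa [1.18 to 2.82] in place of higher and scaRNA18 5.60-fold lower [4.397 to 7.23].

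**Figure D4:**
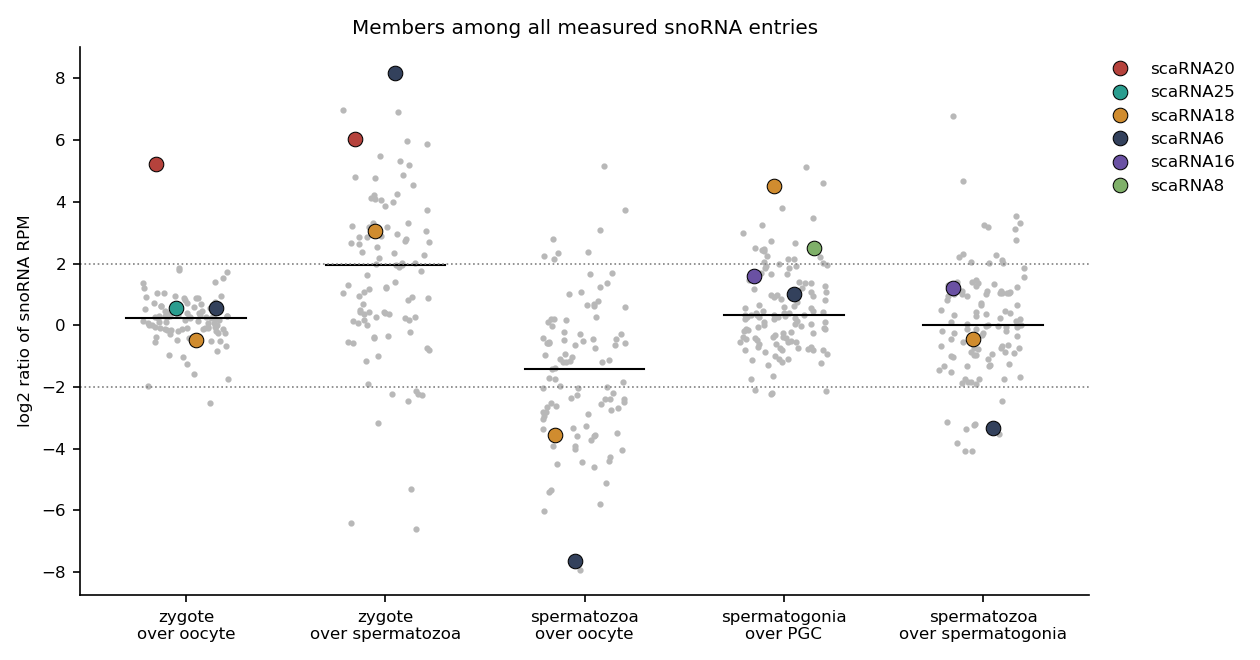
Each grey point is 1 snoRNA entry with 100 or more reads in both libraries together, coloured points are the members, black bars the median of all entries and dotted lines 4-fold, on the log2 scale of snoRNA RPM. scaRNA20 lies highest in zygote over oocyte (5.21), and scaRNA6 is at 8.18 in zygote over spermatozoa and -7.63 in spermatozoa over oocyte.

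Among 141 other snoRNA entries of 100 or more reads over the 5 libraries, 3 had profiles nearest to that of the summed members. Nearness was the Euclidean distance between log2 profiles over the 5 libraries, each centred on its mean. They were ACA25/SNORA25 at a distance of 1.20, SNORA70/U70 at 1.49 and SNORD63/U63 at 1.68, beside a median of 5.17. SNORA25 stood at 2.19, 7.73, 0.973, 50.2 and 174 snoRNA RPM from PGC to zygote. In spermatozoa that is below the level of 3 reads, 2.92, so its distance rests partly on very few reads. SNORA70 stood at 11.7, 14.1, 9.73, 663 and 1274 snoRNA RPM from PGC to zygote, and SNORD63 at 1313, 1627, 1618, 56358 and 59204. The share of all H/ACA entries in the snoRNA reads was also higher in the egg libraries, at 1.11% in the oocyte and 1.65% in the zygote against 0.146% to 0.166% in the male germ cells. So was that of the C/D entries without SNORD60, at 16.9% in the oocyte and 18.0% in the zygote against 6.97% to 11.6%.

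The miRNA tables read Scarna3a, Scarna3b and Scarna13 in another way, along with annotated scaRNA genes that match no member. Human ACA45, an scaRNA, is known to be processed by Dicer into a miRNA-like RNA, and the miRNAs printed above lie in scaRNA genes of the mouse. Whether a read was counted in both the miRNA and the snoRNA table was not tested, as the tables hold no sequences. miR-1843b-5p of Scarna3a had 24.5 reads in PGCs, 137 in spermatogonia and 14 in spermatozoa, with 96.5 in the oocyte and 208 in the zygote. miR-1843a-5p of Scarna3b had 271, 487, 8, 216 and 294 in that order. As these arms share 20 bases, the tables may not separate them fully, and how the reads were split was not tested. In miRNA RPM, miR-1843b-5p stood at 2.04, 12.9, 11.5, 48.0 and 89.4, and miR-1843a-5p at 22.6, 45.7, 6.58, 107 and 126. Both were highest in the zygote, as scaRNA25 was in the snoRNA table, but miR-1843a-5p had 271 reads in PGCs, where scaRNA25 had none. In total RPM both arms were highest in spermatogonia, at 5.20 and 18.5, while scaRNA25 was highest in the zygote on that scale too, at 1.85.

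miR-1843b-5p was 1.87-fold higher in the zygote than in the oocyte [1.46 to 2.41], and miR-1843a-5p 1.18-fold [0.983 to 1.41]. Against spermatozoa, miR-1843a-5p was 19.2-fold higher in the zygote [9.62 to 44.9]. miR-1839-5p had 1370 reads in PGCs, 3100 in spermatogonia and 1073 in spermatozoa, with 1264 in the oocyte and 1505 in the zygote, or 114, 291, 882, 629 and 647 miRNA RPM. On that scale it was highest in spermatozoa, and was 1.36-fold lower in the zygote than in spermatozoa [1.26 to 1.48]. In total RPM it was instead highest in spermatogonia, at 118. The arms of miR-3069, in Scarna13, had at most 12 reads in any library.

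**Figure D5:**
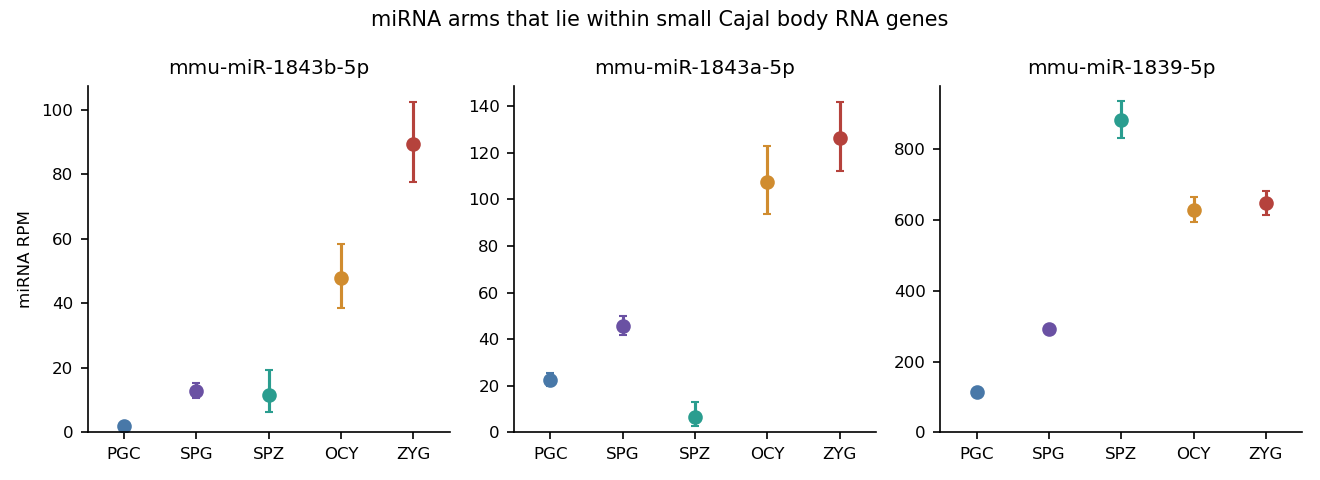
Points give miRNA RPM of 3 miRNA arms that lie in scaRNA genes, with exact 95% counting intervals, in the PGC, SPG, SPZ, OCY and ZYG libraries. miR-1843b-5p and miR-1843a-5p are highest in the zygote (89.4 and 126), and miR-1839-5p in spermatozoa (882).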

How the data were processed

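Total RNA was extracted with TRIzol and small RNAs were sequenced on Illumina instruments, per the labels' protocols, 1 library for each of 5 cell types. Bowtie 0.12.7, DESeq and the mm10 build are listed, per the submitters' processing notes, with no role given. How reads with several matches were counted is not given in the sources used here. The read column holds estimated counts as deposited by the authors, since some values have a fraction. All values of the 14 scaRNA entries are whole. The other column is headed TMM, per the file headers, and the deposited signal equals the read column multiplied by 1 constant in each library. It was used only as an alternative. The 6 snoRNA entries that name no single snoRNA (0.551% to 4.59% of the table) were left out of totals.

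Members and gene lists were chosen with earlier results of these data known. All members are named by rule, with SNORD60 and the 3 entries nearest to the summed profile. H/ACA and C/D entries were told apart by the class at the start of the entry name. Log2 ratios used a pseudocount of 0.5 reads and a minimum of 100 reads over the pair, and ratios carry the exact interval of a pair of Poisson counts given their sum. Shares have Clopper-Pearson intervals. Scripts ran in Python 3.11.15 with scipy 1.17.1, and were tested on simulated data. Tried as alternatives were reads of all 4 tables as the total, a total without SNORD60, edgeR 4.0.16 TMM factors, DESeq2 1.42.0 size factors, the 6 entries put back, minimums of 20 reads and 1 read, a pseudocount of 5, and the sum without scaRNA6. The deposited factor was added after seeing the data. With 1 library per cell type no test between cell types was run and no library could be left out.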

Additional observations from a re-analysis of the deposited data

Results flagged for a closer look

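A pair of scaRNA entries outside the limit of 10 had more than 3 reads in a library and enter no comparison above. ACA35/scaRNA1 had 12 reads in spermatogonia and 6 in spermatozoa, with 7 in the oocyte and 8 in the zygote, against 2 in PGCs. ACA11/scaRNA23 had 21 reads in spermatogonia and none in any other library. With 3 reads set in PGCs and the 21 taken as exact, it was at least 10.3-fold higher in spermatogonia in snoRNA RPM. The exact interval of that ratio began at 7.67-fold, and at 5.25-fold in total RPM.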

How the results depend on the processing

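Values here are log2 ratios of the summed members, in the order zygote over oocyte, zygote over spermatozoa, spermatozoa over oocyte, spermatogonia over PGCs, and spermatozoa over spermatogonia. In snoRNA RPM they were 0.52, 6.98, -6.45, 1.14 and -2.26. In total RPM they were 0.18, 5.19, -5.01, 0.59 and -4.30. Without SNORD60 in the total they were 0.34, 5.98, -5.63, 1.39 and -2.94. With edgeR TMM factors they were 0.30, 5.71, -5.41, 0.51 and -2.49. With DESeq2 size factors the first 4 were 0.36, 5.50, -5.14 and 0.47. With the deposited factor they were 0.73, 6.20, -5.47, 0.036 and -3.57. Without scaRNA6 they were 0.050, 2.77, -2.72, 3.31 and 0.12 in snoRNA RPM. The last had the other sign, but it and the first were within counting error and show no direction. In total RPM the sum without scaRNA6 was lower in spermatozoa than in spermatogonia, as the full sum was. On that scale it was also lower in the zygote than in the oocyte, unlike the full sum, and both differences were beyond counting error. Putting back the 6 unspecific entries moved none of the ratios of the full sum beyond counting error. With scaRNA6 in the sum, each ratio kept its sign under the alternatives run. At 0.036 with the deposited factor, however, spermatogonia over PGCs was close to no difference. No interval was computed on that scaling, so this value is not taken to show a direction.

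Members at least 4-fold apart numbered 1, 3, 2, 2 and 1 in the same comparisons. In zygote over spermatozoa total RPM, TMM factors and DESeq2 factors each gave 2, scaRNA18 being the one lost. The share of all entries was not counted under other scalings, so the counts given for them here and below have no background. A minimum of 20 reads or of 1 read gave 10 there, 8 higher and 2 lower, beside 44.7% and 46.6% of all entries higher and 8% and 8.43% lower. In spermatozoa over oocyte these minimums gave 6 (5 lower) and 8 (7 lower), beside 42.2% and 42.4% of all entries lower and 8.16% and 8.47% higher. In spermatogonia over PGCs they gave 5 and 6, all higher, beside 23.5% and 27.3%, while total RPM, TMM factors, DESeq2 factors and the deposited factor each gave 1. In spermatozoa over spermatogonia the minimums gave 5 each (4 lower), beside 15.1% and 15.3% of all entries lower, and total RPM gave 2. Of 96 single member ratios under alternatives, 43 moved by less than counting error and 53 by more, and 3 changed sign, none of them 4-fold apart. scaRNA6 in spermatogonia over PGCs was at 1.00, and at -0.099 with the deposited factor. scaRNA16 in spermatozoa over spermatogonia was at 1.20, at -0.84 in total RPM and at -0.11 with the deposited factor. No paired analysis was possible because there is 1 library per cell type. In spermatozoa, 312 reads of the members set the limit of what can be seen.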

Other observations

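The 3′ arm of miR-1839, from the same scaRNA gene as the 5′ arm, had 183 reads in PGCs, 273 in spermatogonia and 32 in spermatozoa, with 178 in the oocyte and 253 in the zygote. It stood at 15.2, 25.6, 26.3, 88.5 and 109 miRNA RPM in that order. On that scale, unlike the 5′ arm, it was highest in the zygote, 4.13-fold higher than in spermatozoa [2.85 to 6.17], where the 5′ arm was 1.36-fold lower in the zygote [1.26 to 1.48]. In total RPM both arms were instead highest in spermatogonia, the 3′ arm at 10.4 and the 5′ arm at 118. The 3′ arm of miR-1843a, in Scarna3b, had 60 reads in the oocyte and 54 in the zygote, against 9 in spermatozoa. The arms of miR-6516, in the annotated scaRNA gene Gm26083, had at most 8 reads in any library. Counts over these arms carry counting error only and no replicate.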
